A study of Mus musculus with 6 samples.

Results

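The 38 genes described here encode proteins of the lysosome: 5 membrane proteins, 9 proteases, 11 glycosidases, 4 sulfatases, 8 lipid enzymes or lipid transfer proteins, and progranulin. They were taken by symbol from a list of lysosomal hydrolases and membrane proteins that leaves out the proton pump subunits and cathepsin S. All 38 were found among the 23398 genes of the deposited table, each under 1 symbol, and all are protein coding. The cells were dendritic cells grown from mouse bone marrow (BMDC) in medium with serum and antibiotics, and no growth factor, mouse strain, age or sex is named in the labels. A group of 3 libraries (CTRL) came from cells given vehicle for 12 hours, and a group of 3 libraries (NP) from cells given Ca(OH)2 nanoparticles for 12 hours, with no genotype, dose or particle size stated. The labels do not say whether the libraries came from separate mice or cultures, so the p-values measure only the spread between these libraries, which may be technical.

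Lysosomes are acidic compartments in which proteases, glycosidases, sulfatases and lipases break down proteins, glycans and lipids that reach them by endocytosis, phagocytosis or autophagy. Most of these enzymes are soluble glycoproteins that are carried from the Golgi by mannose 6-phosphate receptors, while the membrane proteins line and protect the compartment or move ions and lipids across it. In dendritic cells the same proteases cut antigens into peptides for presentation on MHC class II molecules. Many lysosomal genes are known targets of TFEB and related transcription factors, which bind E-box letters near the start site.

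The deposited values were treated as FPKM (fragments per kilobase of transcript, scaled between libraries), so that levels of different genes can be compared per length. Read totals recovered from them were 17283426 to 18220526 in the vehicle libraries and 17792576 to 21976265 in the nanoparticle libraries, and the least covered member still rested on 78 reads in its lowest library (Arsb). Nanoparticle library 1 stood apart: over the 10682 genes tested, which are not independent replicates, its correlation of log2(FPKM + 1) with nanoparticle libraries 2 and 3 was 0.9423 and 0.9282, against 0.9895 between those and 0.9926 to 0.9938 among the vehicle libraries. Results are therefore given with and without it. In bulk RNA of this kind, fewer cells of a type and less RNA per cell cannot be told apart.

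Promoter letters were read from RefSeq windows on GRCm38.p6 that span 250 bases before to 50 bases after each start, and 33 of the 38 members had such a window. The core E-box CACGTG, which reads the same on both strands, was present in 10 of these 33 genes (30.3%), against 8.09% of the 27025 genes with a window and 12.4% of the 7946 among them that were also tested for expression. The longer palindrome TCACGTGA, which contains the core, was present in 4 of the 33 (12.1%: Ctsa, Ctsd, Gla and Mcoln1), against 1.12% of all genes and 2.38% of tested genes. The same letters with a further G before and C after them were in 0 of the 33 members and in 0.37% of all genes. The 10 members with the core letters were Arsa, Ctsa, Ctsd, Ctsl, Gaa, Gla, Glb1, Lamp1, Mcoln1 and Naglu. These matches describe letters and do not show that a factor bound there.

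The stretches of 100 bases below, 5′ to 3′ on the gene's strand, show 3 of the members with more than 1 copy and then, for contrast, the 3 members with the largest increases, none of which held the core in its window. Capitals mark CACGTG.
Lamp1 (chr8:13159061-13159160, plus strand, 100 to 1 bases before the start): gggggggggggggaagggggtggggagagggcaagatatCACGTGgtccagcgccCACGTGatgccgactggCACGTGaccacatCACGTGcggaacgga
Mcoln1 (chr8:3500357-3500456, plus strand, 162 to 63 bases before the start): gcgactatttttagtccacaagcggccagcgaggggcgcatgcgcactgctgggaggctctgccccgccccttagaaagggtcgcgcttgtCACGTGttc
Gla (chrX:134601156-134601255, minus strand, 250 to 151 bases before the start): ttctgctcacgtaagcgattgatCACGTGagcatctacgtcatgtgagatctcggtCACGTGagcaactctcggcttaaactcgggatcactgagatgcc
Npc2 (chr12:84773153-84773252, minus strand, 140 to 41 bases before the start): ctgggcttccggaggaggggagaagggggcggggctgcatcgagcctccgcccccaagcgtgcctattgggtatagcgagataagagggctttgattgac
Ctsz (chr2:174439040-174439139, minus strand, 100 to 1 bases before the start): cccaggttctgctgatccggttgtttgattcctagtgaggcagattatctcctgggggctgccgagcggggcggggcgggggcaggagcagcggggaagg
Ctsk (chr3:95499110-95499209, plus strand, 100 to 1 bases before the start): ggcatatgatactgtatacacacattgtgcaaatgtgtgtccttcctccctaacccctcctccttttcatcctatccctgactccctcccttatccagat
Lamp1 held 4 copies, beginning 61, 45, 28 and 15 bases before its start, all inside the printed stretch. Mcoln1 held copies beginning 71 and 45 bases before its start, of which the stretch shows the first, and Gla held copies beginning 227 and 194 bases before its start, both shown. The stretches of Mcoln1 and Npc2 were set further upstream so that they end before the first exon of either annotation used here.

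Against vehicle, 16 of the 38 genes (42.1%) passed the threshold in nanoparticle libraries, 10 of them higher and 6 lower. The test was limma's moderated test on log2(FPKM + 1), with a threshold of 0.05 on the Benjamini-Hochberg adjusted p over all 10682 tested genes. The background was 33.2% of all tested genes, 17.0% higher and 16.2% lower and the members' share was not far above it. The groups did not overlap in 24 members (63.2%), 15 higher and 9 lower, against 52.1% of all tested genes (25.9% higher and 26.2% lower). The median log2 change was 0.17 over the members and 0.00 over all genes. All 38 passed the filter of 1 FPKM in 3 libraries, Arsb through the vehicle group, since it was under 1 FPKM in nanoparticle libraries 2 and 3.

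**Figure D1:**
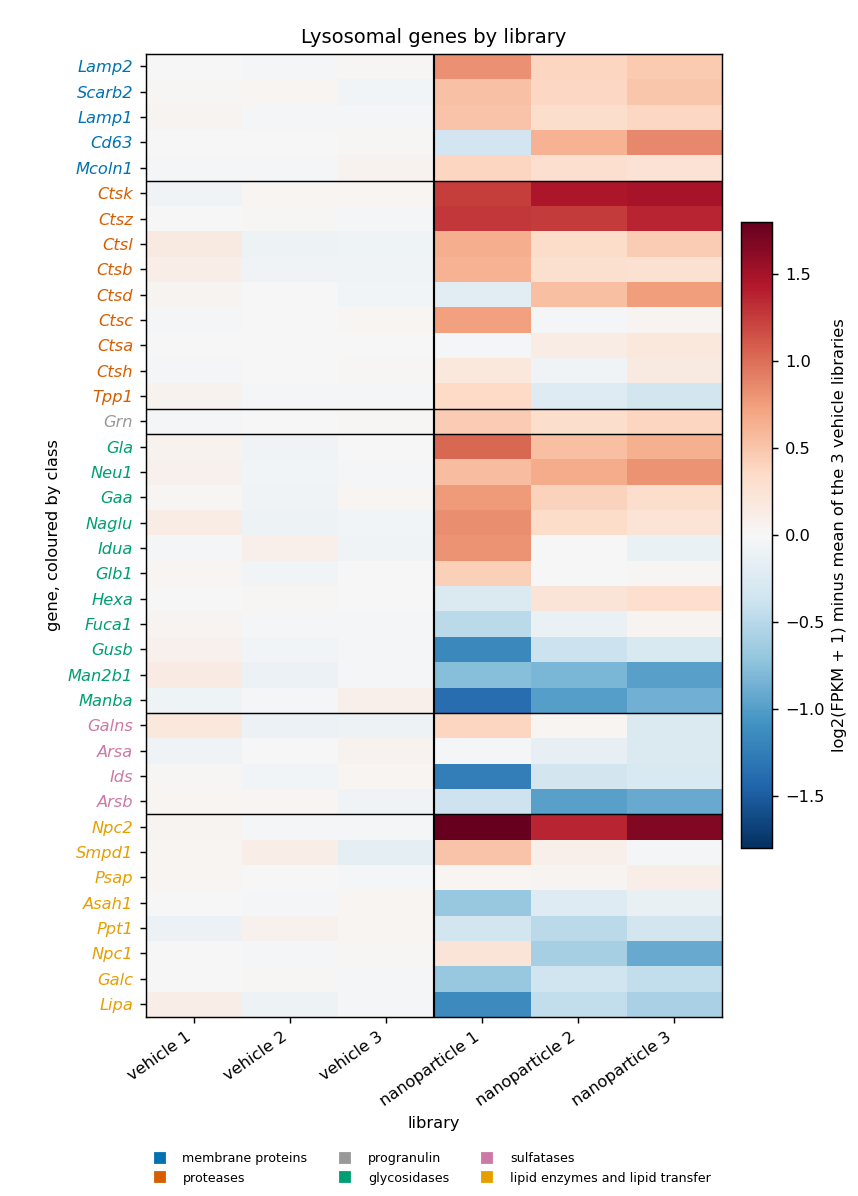
Level of each of the 38 lysosomal genes in each library, as log2(FPKM + 1) minus the mean of the 3 vehicle libraries, with red above and blue below that mean. Rows are grouped by class. Npc2, Ctsk and Ctsz are red in all 3 nanoparticle libraries, Manba and Man2b1 are blue in all 3, and Cd63, Ctsd and Npc1 have opposite colours in library 1 and in libraries 2 and 3.

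The classes did not move alike. All 5 membrane proteins and 8 of 9 proteases had means above vehicle on the deposited scale, with median log2 changes of 0.40 and 0.36, while with equal sums of FPKM Lamp1, Cd63, Mcoln1, Ctsb, Ctsd, Ctsc, Ctsa and Ctsh turned below it. The sulfatases and the lipid group had medians of -0.38 and -0.36, with 3 of 4 and 5 of 8 means below vehicle. The glycosidases were divided, with 7 means above and 4 below vehicle and a median of 0.15. No test of a difference between classes was made.

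Directions depend on how libraries are scaled to each other. Scaling by total recovered reads took the median over all genes from 0.00 to -0.28 on the log2 scale and that over the members from 0.17 to -0.14, and equal sums of FPKM moved them to -0.38 and -0.26. The calls were then 4 higher and 11 lower members with total reads (background 44.2%, or 10.4% and 33.8%), and 3 higher and 13 lower with equal sums (background 48.6%, or 8.25% and 40.3%). With trimmed means of M values 7 members were higher and 6 lower (background 33.6%, or 16.0% and 17.6%). In each of these 4 scalings the same 9 members were called in the same direction: Npc2, Ctsk and Ctsz higher, and Man2b1, Manba, Arsb, Lipa, Galc and Ppt1 lower.

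**Figure D2:**
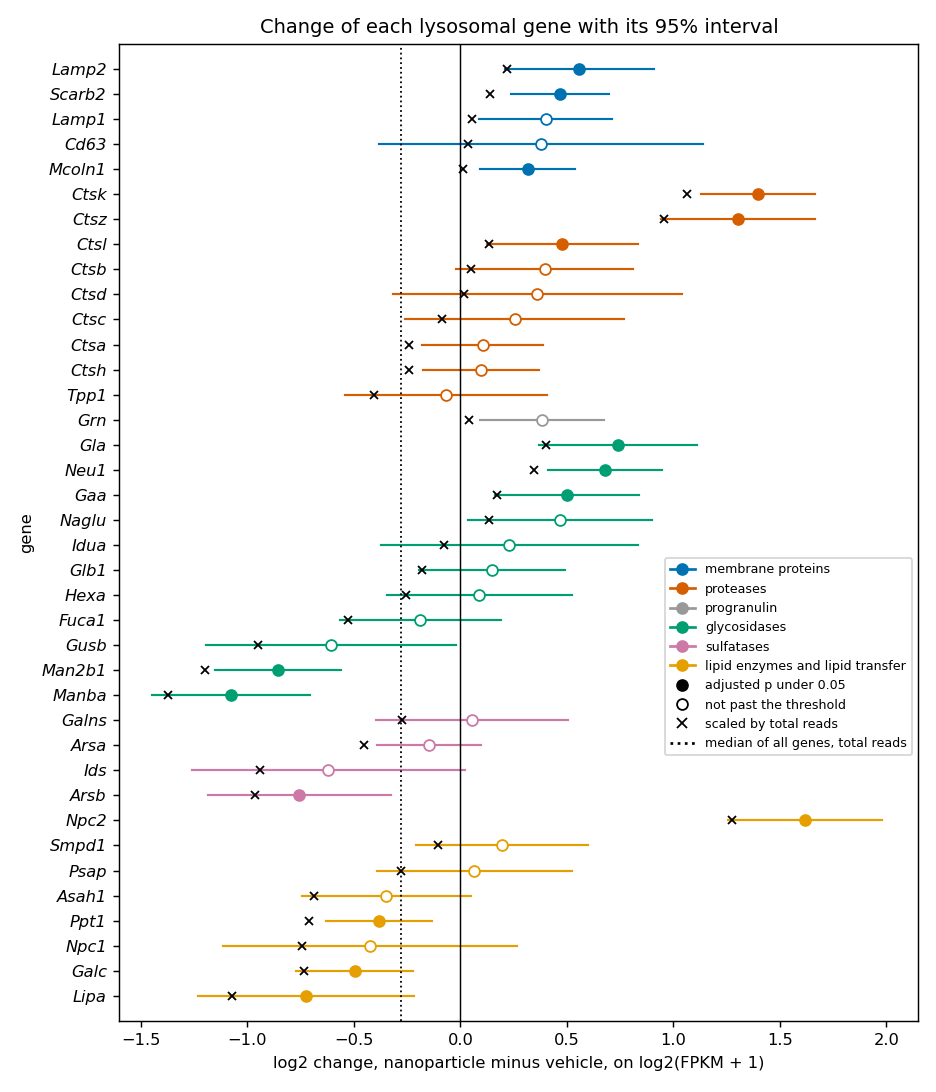
Log2 change of each lysosomal gene, nanoparticle minus vehicle, on the log2(FPKM + 1) scale, with its 95% interval. Filled circles passed the threshold, open circles did not, crosses give the change with libraries scaled by total reads, and the dotted line is the median of all genes under that scaling (-0.28). All 16 filled circles keep their side of 0 under total reads, with Mcoln1 nearest to it at 0.01.

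Among the membrane proteins, 3 of 5 rose, all by less than 2-fold. Lamp2 (ENSMUSG00000016534, GRCm38 chromosome X, 38401357 to 38456454, minus strand), a heavily glycosylated protein of the lysosomal membrane that takes part in autophagy, was at 79.98, 78.91 and 81.01 FPKM in vehicle and 142.6, 104.5 and 111.1 FPKM in nanoparticle libraries 1 to 3. All nanoparticle libraries were above all vehicle libraries, and the log2 change was 0.56 (SE 0.145, adjusted p by limma 0.0281). Scarb2, the receptor that carries glucocerebrosidase to lysosomes, was at 17.6, 17.8 and 16.7 FPKM and then at 25.4, 22.9 and 25.1 FPKM. Its 3 nanoparticle values lay close together and above vehicle (log2 change 0.47, SE 0.0949, limma adjusted p = 0.0111). Mcoln1, a cation channel that lets calcium out of lysosomes and the least abundant of this class, was at 6.28, 6.28 and 6.79 FPKM and then at 8.78, 8.16 and 7.88 FPKM. Its log2 change was 0.32 (SE 0.0920, limma adjusted p = 0.0414).

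Lamp1, the other major glycoprotein of the lysosomal membrane and the most abundant of the class, was at 431, 411 and 412 FPKM in vehicle and 598, 521 and 539 FPKM with nanoparticles. The groups did not overlap, yet the log2 change of 0.40 (SE 0.130) was just outside the threshold (limma adjusted p = 0.0579). It passed with a filter of 5 FPKM (limma adjusted p = 0.0458) or without the mean-variance trend (0.0231). With libraries scaled by total reads, Lamp2, Scarb2, Mcoln1 and Lamp1 had log2 changes of 0.22, 0.14, 0.01 and 0.06, none past the threshold, while all genes had a median of -0.28. With equal sums of FPKM, Mcoln1 and Lamp1 turned to -0.10 and -0.07.

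Of the 9 proteases 3 rose, and the other 6 did not pass. Ctsk (ENSMUSG00000028111, chromosome 3, 95499256 to 95509362, plus strand), a collagen-degrading cysteine protease best known from osteoclasts, was the least abundant protease in vehicle, at 23.8, 25.6 and 25.7 FPKM. It was at 60.8, 70.7 and 71.9 FPKM with nanoparticles, 2.71 times the vehicle mean (log2 change 1.40, SE 0.111, limma adjusted p = 3.5e-04). Ctsz (ENSMUSG00000016256, chromosome 2, 174427493 to 174439039, minus strand), a cysteine carboxypeptidase, was at 996, 998 and 967 FPKM in vehicle. It reached 2395, 2353 and 2565 FPKM with nanoparticles, 2.47 times the vehicle mean (log2 change 1.30, SE 0.149, limma adjusted p = 0.00127). In both genes the 3 nanoparticle libraries were near each other, library 1 included, and the lowest was more than 2-fold above the highest vehicle library. Ctsl, an endopeptidase of late endosomes, was at 215, 179.9 and 181 FPKM and then at 300.4, 241 and 262 FPKM (log2 change 0.48, SE 0.146, limma adjusted p = 0.0480).

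Ctsd, an aspartic protease, was the most abundant protease, at 2375, 2287 and 2221 FPKM in vehicle. It was at 1993 FPKM in nanoparticle library 1, below every vehicle library, and at 3327 and 3853 FPKM in libraries 2 and 3, above every one of them. Its log2 change of 0.36 did not pass (SE 0.280, limma adjusted p = 0.371). Ctsb, Ctsc, Ctsa, Ctsh and Tpp1 did not pass either, with log2 changes of -0.07 (Tpp1) to 0.40 (Ctsb) and vehicle means of 50.7 to 1030 FPKM. For Ctsb the groups did not overlap, and for the other 4 they did. Under total reads Ctsl stood at a log2 change of 0.13 and was not called.

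Progranulin, a secreted and lysosomal glycoprotein that is cut there into granulins, was at 326, 329 and 332 FPKM (Grn) in vehicle and 452, 408 and 430 FPKM with nanoparticles. The groups did not overlap, and the log2 change of 0.38 missed the threshold (SE 0.120, limma adjusted p = 0.0522). It passed with a filter of 5 FPKM (limma adjusted p = 0.0427) or without the mean-variance trend (0.0203). With equal sums of FPKM it was -0.09.

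Among the glycosidases, 3 of 11 rose and 2 fell. Gla (ENSMUSG00000031266, chromosome X, 134588149 to 134601125, minus strand) removes terminal galactose from glycolipids, and its promoter holds both E-boxes printed above. It was at 42.8, 39.1 and 40.7 FPKM in vehicle and 84.8, 60.1 and 64.2 FPKM with nanoparticles, highest in library 1 (log2 change 0.74, SE 0.153, limma adjusted p = 0.0120). Neu1 (ENSMUSG00000007038, chromosome 17, 34931253 to 34935953, plus strand), the lysosomal sialidase, was at 26.8, 24.4 and 25.1 FPKM and then at 37.8, 41.0 and 45.3 FPKM (log2 change 0.68, SE 0.110, limma adjusted p = 0.00468). Gaa, which breaks down glycogen, was at 15.3, 14.3 and 15.4 FPKM and then at 26.2, 20.3 and 18.97 FPKM (log2 change 0.50, SE 0.140, limma adjusted p = 0.0356). With total reads, Neu1 was still called at 0.34, whereas Gla (0.40) and Gaa (0.17) were not. With equal sums of FPKM none of the 3 was called, at 0.22, 0.28 and 0.06.

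Both mannosidases of the list, which trim mannose from N-glycans, were lower. Manba (ENSMUSG00000028164, chromosome 3, 135485611 to 135571404, plus strand), the beta-mannosidase, was at 9.28, 9.67 and 10.5 FPKM in vehicle and 3.16, 4.46 and 4.96 FPKM with nanoparticles. That is 0.427 times the vehicle mean, the largest decrease of the 38 (log2 change -1.07, SE 0.153, limma adjusted p = 0.00293). Man2b1 (ENSMUSG00000005142, chromosome 8, 85083270 to 85098282, plus strand), the alpha-mannosidase, was at 97.7, 81.4 and 85.4 FPKM and then at 51.0, 49.4 and 44.1 FPKM (log2 change -0.86, SE 0.122, limma adjusted p = 0.00291). All 3 nanoparticle libraries lay below every vehicle library for both genes.

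Gusb, the beta-glucuronidase, was at 133, 122 and 124 FPKM in vehicle and 55.8, 96.3 and 103.9 FPKM with nanoparticles. The groups were separate, with library 1 far below the other 2 nanoparticle libraries, and the log2 change of -0.61 did not pass (SE 0.243, limma adjusted p = 0.104). With total reads it did, at -0.95 (limma adjusted p = 0.0167). Hexa, the alpha subunit of beta-hexosaminidase and the most abundant glycosidase, was at 237, 241 and 238 FPKM and then at 198, 279 and 296 FPKM. Its libraries fell on both sides of vehicle (log2 change 0.09, SE 0.179, limma adjusted p = 0.740). Naglu, Idua, Glb1 and Fuca1 had log2 changes of -0.19 (Fuca1) to 0.47 (Naglu), and the groups were separate only for Naglu.

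Of the 4 sulfatases, which take sulfate groups off glycosaminoglycans and sulfatides, 1 passed. Arsb (ENSMUSG00000042082, chromosome 13, 93771630 to 93943016, plus strand), which acts on dermatan and chondroitin sulfate, was at 2.60, 2.59 and 2.37 FPKM in vehicle and 1.72, 0.781 and 0.868 FPKM with nanoparticles. Library 1 was the highest of the nanoparticle libraries and still below vehicle (log2 change -0.76, SE 0.178, limma adjusted p = 0.0194). Ids, the iduronate sulfatase, was at 16.8, 15.9 and 16.9 FPKM and then at 6.36, 12.9 and 13.4 FPKM. The groups were separate, library 1 was the lowest, and the log2 change of -0.62 did not pass (SE 0.265, limma adjusted p = 0.122). With total reads it did, at -0.94 (limma adjusted p = 0.0237). Galns, which acts on keratan sulfate, overlapped between groups, with 19.9, 16.0 and 16.1 FPKM and then 22.9, 17.6 and 14.3 FPKM (log2 change 0.05, SE 0.187, limma adjusted p = 0.852). Arsa, which acts on sulfatide, had a log2 change of -0.15.

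The lipid group held the largest increase of all 38 genes beside several decreases. Npc2 (ENSMUSG00000021242, chromosome 12, 84754562 to 84773152, minus strand) is a small soluble protein that binds cholesterol in the lysosome and hands it to Npc1 in the membrane. It was at 122, 115.5 and 115.3 FPKM in vehicle and 415, 306 and 377 FPKM with nanoparticles, 3.11 times the vehicle mean (log2 change 1.62, 95% interval 1.26 to 1.98, SE 0.149, limma adjusted p = 6.0e-04). The lowest nanoparticle library was more than 2-fold above the highest vehicle library. Npc1, the membrane partner, did not pass, at -0.42 on the log2 scale (SE 0.285, limma adjusted p = 0.303). Psap, the precursor of the saposins that help lipid hydrolases reach their substrates, was the most abundant member, at 6140, 5968 and 5958 FPKM and then at 6171, 6200 and 6543 FPKM. Its log2 change was 0.07, with a 95% interval of -0.39 to 0.52 (limma adjusted p = 0.819).

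Lipa, Galc and Ppt1 fell. Lipa (ENSMUSG00000024781, chromosome 19, 34492318 to 34527474, minus strand), the acid lipase that frees cholesterol and fatty acids from lipoprotein lipids, was at 481, 418 and 437 FPKM in vehicle and 201, 326 and 296 FPKM with nanoparticles. Library 1 was the lowest, and all 3 were below vehicle (log2 change -0.73, SE 0.210, limma adjusted p = 0.0403). Galc, which breaks down galactosylceramide and was the least abundant of the class, was at 2.86, 2.91 and 2.80 FPKM and then at 1.40, 2.00 and 1.84 FPKM (log2 change -0.50, SE 0.114, limma adjusted p = 0.0178). Ppt1, which takes palmitate off proteins, was at 20.4, 23.2 and 22.4 FPKM and then at 17.2, 15.5 and 17.3 FPKM (log2 change -0.38, SE 0.103, limma adjusted p = 0.0315). Asah1, the acid ceramidase, and Smpd1, the acid sphingomyelinase, did not pass, at -0.35 and 0.19.

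**Figure D3:**
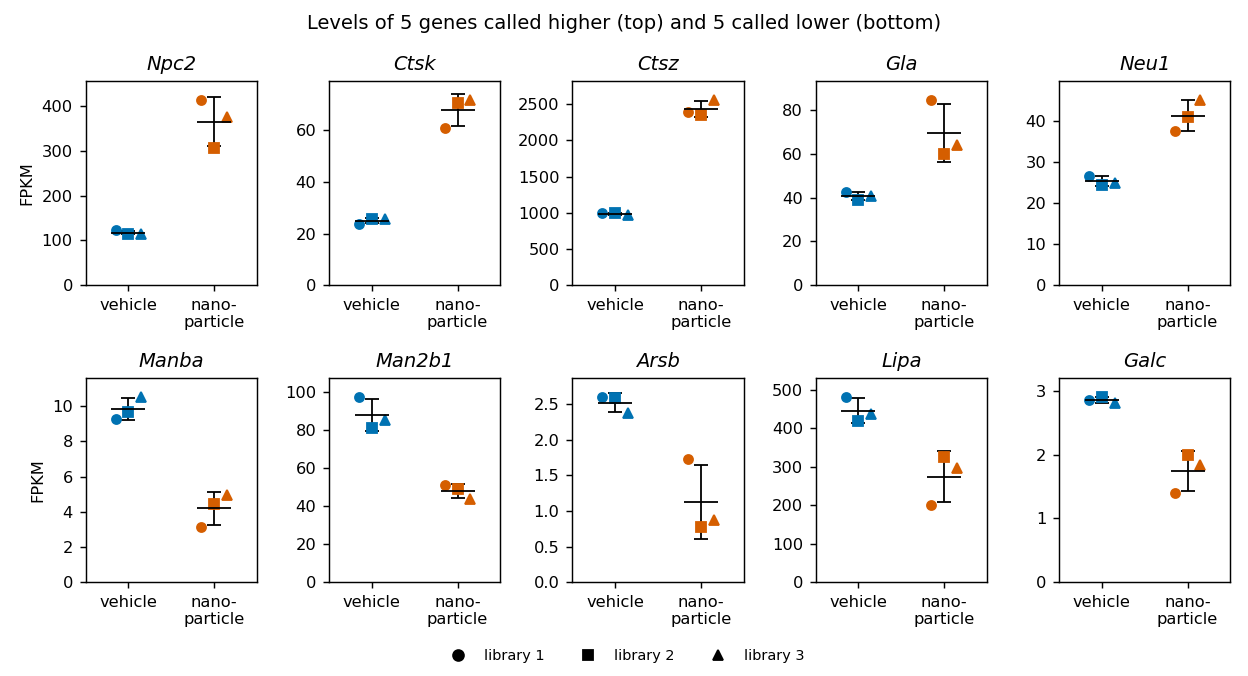
FPKM of the 5 members with the largest called increases (top) and the 5 with the largest called decreases (bottom), with 1 point per library. Long lines are means and bars are SD (n = 3 libraries per group), and every axis starts at 0. In all 10 panels the groups are separate, and for Lipa, Galc and Manba library 1 is the lowest point.

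Calls rested on all libraries to different degrees. Leaving out vehicle library 1, 2 or 3 gave 7, 6 and 6 called members, and the share of all genes called was 20.8%, 20.5% and 20.0%. Leaving out nanoparticle library 2 or 3 gave 11 members each (26.3% and 30.4% of all genes), and leaving out nanoparticle library 1 gave 29 (64.8% of all genes). The members' counts thus went down and up with those of all genes. Npc2, Ctsk, Ctsz, Manba, Man2b1 and Neu1 were called in each of the 6 fits. Without vehicle library 1, 2 or 3, limma adjusted p-values were 0.0570, 0.0568 and 0.0718 for Scarb2, 0.103, 0.111 and 0.103 for Lamp2, and 0.0729, 0.0779 and 0.0709 for Galc. Gla was lost without vehicle library 2 or 3 (0.0610 and 0.0572). Gaa was lost without any vehicle library or without nanoparticle library 2 (0.0701 to 0.134), and Lipa without any vehicle library or without nanoparticle library 3 (0.0618 to 0.143). Arsb, Ppt1, Mcoln1 and Ctsl were lost in every fit but that without nanoparticle library 1, with limma adjusted p-values of 0.0552 to 0.0739, 0.0503 to 0.144, 0.0525 to 0.166 and 0.0681 to 0.185. All 16 kept their direction in these fits.

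Without nanoparticle library 1, 29 members were called, 18 higher and 11 lower, against a background of 64.8% of all tested genes, 34.3% higher and 30.5% lower. The members' median was then 0.07, and that of all genes 0.02. All 5 membrane proteins, 6 of 9 proteases, 5 of 11 glycosidases, Grn and Npc2 were higher, and 5 lipid genes, 3 glycosidases, 2 sulfatases and Tpp1 were lower. Log2 changes without this library were 1.52 for Npc2, 1.47 for Ctsk, 1.31 for Ctsz, -0.92 for Manba, -0.95 for Arsb and -0.90 for Man2b1.

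Genes in which nanoparticle library 1 went its own way were picked out after their values were seen. In 6 members (15.8%) library 1 lay on the other side of the vehicle mean from libraries 2 and 3, as it did in 27.1% of all tested genes. These were Cd63, Ctsd, Hexa, Ctsa, Npc1 and Tpp1. Cd63, a tetraspanin of late endosomes, was at 247, 246 and 251 FPKM in vehicle, at 194 FPKM in nanoparticle library 1, and at 383 and 451 FPKM in libraries 2 and 3. Its log2 change was 0.38 with all libraries (limma adjusted p = 0.404) and 0.74 without library 1. Since these 6 genes were picked for the way library 1 differed, p-values without it are no support and are not given here. Npc1 showed the mirror image, at 15.3, 14.8 and 15.4 FPKM in vehicle, 18.0 FPKM in library 1, and 9.67 and 7.58 FPKM in libraries 2 and 3. Without library 1 its log2 change was -0.75, so that the pair of cholesterol carriers, Npc2 and Npc1, lay on opposite sides of vehicle in libraries 2 and 3.

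A gap of at least 1.5-fold between library 1 and the mean of libraries 2 and 3 was found in 9 members (23.7%) and in 31.8% of all genes. Library 1 was above the others for Idua, Ctsc, Tpp1 and Npc1, and below them for Gusb, Lipa, Cd63, Ctsd and Ids. Ctsc, which activates serine proteases of granules, was at 85.1 FPKM in library 1 and at 49.8 and 52.5 FPKM in libraries 2 and 3, close to its vehicle level of 50.7 ± 0.954 FPKM (SD, n = 3). What sets library 1 apart was not tested.

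**Figure D4:**
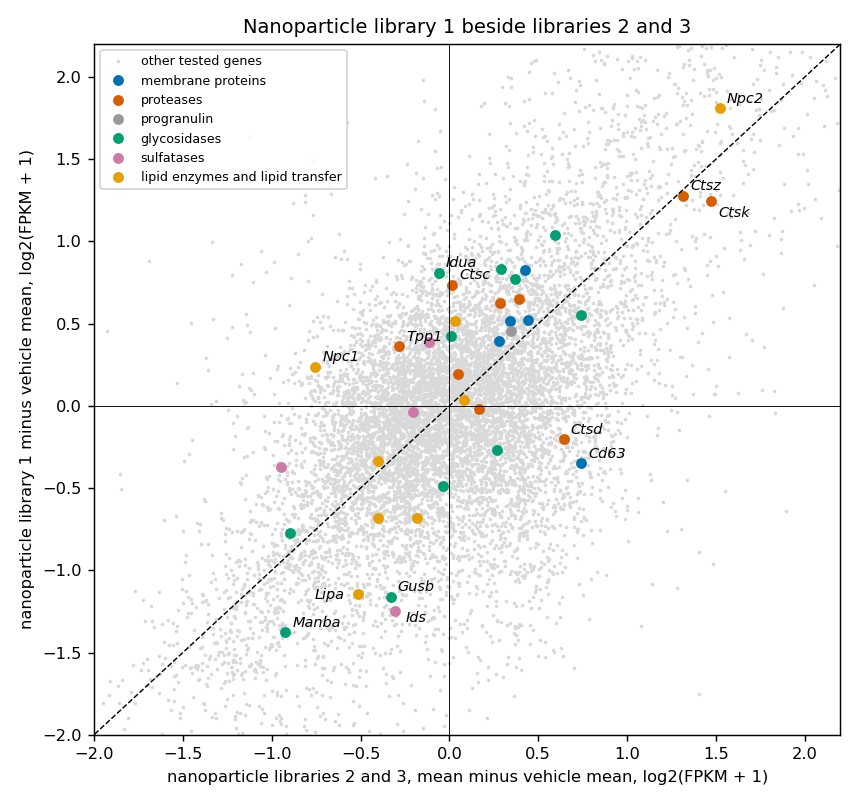
Change of each gene in nanoparticle library 1 (vertical) against the mean change in libraries 2 and 3 (horizontal), both as log2(FPKM + 1) minus the vehicle mean, with lysosomal genes coloured by class and all tested genes in grey. Genes outside the drawn axes are not shown, and the dashed line marks equal change. Npc2, Ctsz and Ctsk lie near the line at upper right, while Cd63 and Ctsd lie right of 0 and below it, and Npc1 and Tpp1 left of 0 and above it.

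Lysosomal genes were abundant in these cells: 20 of the 38 (52.6%) had a vehicle mean of at least 50 FPKM, against 7.7% of all tested genes. Their summed level was 13770, 13210 and 13150 FPKM in vehicle and 15660, 16680 and 17980 FPKM with nanoparticles, so every nanoparticle library was above every vehicle library. As a share of all FPKM in the library, the order was the opposite, with 4.19%, 4.08% and 4.09% in vehicle and 3.91%, 3.59% and 3.66% with nanoparticles. Psap alone made up 1.84% to 1.87% of the library in vehicle and 1.33% to 1.54% with nanoparticles. Without Psap the share was 2.24% to 2.32% in vehicle and 2.26% to 2.37% with nanoparticles, and the groups overlapped.

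The share of the proteases went from 1.5% ± 0.0394 to 1.67% ± 0.0335 (SD, n = 3 each), and that of the lipid group from 2.06% ± 0.0232 to 1.57% ± 0.131. Glycosidases went from 0.206% ± 0.00463 to 0.148% ± 0.00351 and sulfatases from 0.0135% ± 0.000588 to 0.00829% ± 0.00125. Membrane proteins were at 0.237% ± 0.00202 and 0.232% ± 0.00920. As shares, then, the proteases with Ctsz among them were higher in every nanoparticle library. The lipid group, glycosidases and sulfatases were lower in each, and the membrane proteins overlapped. These sums weigh the most abundant genes most. Ctsz alone went from a mean of 987 to 2438 FPKM, within a mean protease sum of 4859 and then 7552 FPKM. The protease share without Ctsz was not computed, so the higher share is not shown for the proteases other than Ctsz. Psap had means of 6022 and 6305 FPKM, within a mean lipid group sum of 6703 and 7040 FPKM. These sums are descriptions, and no test was made on them.

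**Figure D5:**
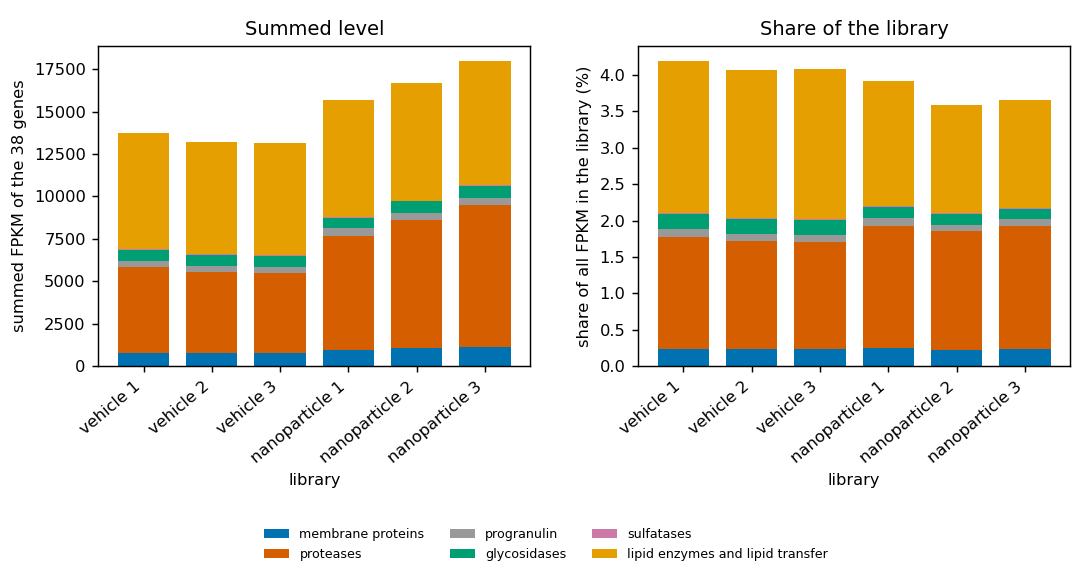
Summed FPKM of the 38 lysosomal genes in each library (left) and the same sum as a share of all FPKM in that library (right), stacked by class. The sum is higher in each nanoparticle library (15660 to 17980) than in vehicle (13150 to 13770), while the share is lower (3.59% to 3.91% against 4.08% to 4.19%). Sulfatases, at 0.00708% to 0.0142% of the library, are too few to see.

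The members with CACGTG in their window can be set beside those without. Of the 10 with it, 4 were higher (Ctsl, Gaa, Gla and Mcoln1), 0 lower and 6 not called, with a median log2 change of 0.38. Of the 23 with a window but without the letters, 6 were higher and 6 lower, with a median of 0.09. Among all tested genes 17.0% were higher and 16.2% lower, and calls among other genes with the letters were not counted. The 3 largest increases, in Npc2, Ctsk and Ctsz, were in the set without the letters, as were all 6 decreases. Under total reads the medians were 0.04 and -0.26, and without nanoparticle library 1 they were 0.32 and 0.01. The sets were not tested against each other.

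Transcript levels of the factors known to bind these letters did not pass. In a list of 17 genes of the MiT/TFE family and its regulators, 0 passed limma's threshold in either direction, beside 33.2% of all tested genes. In limma's test 3 of the 17 had an unadjusted p under 0.05, and the share of all genes under that value was not counted. The median log2 change of the list was -0.06. Tfeb was at 6.53, 6.64 and 6.30 FPKM in vehicle and 1.46, 4.16 and 4.42 FPKM with nanoparticles, with library 1 the lowest (log2 change -0.87, SE 0.305, limma adjusted p = 0.0720). Tfe3, Mitf and Tfec had log2 changes of -0.02, 0.18 and 0.255. Without nanoparticle library 1, 7 genes of the list were higher and 7 lower, beside 34.3% and 30.5% of all tested genes. Tfeb was then at -0.50 (limma adjusted p = 8.5e-04) and Tfec at 0.56 (limma adjusted p = 3.3e-04). Tfeb, Tfe3, Mitf and Tfec were named here after their values were seen.

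Of 22 genes for transport to the lysosome, all tested, 2 were higher and 4 lower, no larger a share than the 33.2% called among all tested genes, with a median log2 change of -0.01. The mannose 6-phosphate receptors, which deliver most soluble hydrolases, went opposite ways. Igf2r, the large receptor, was at 44.98, 45.3 and 44.9 FPKM in vehicle and 16.4, 19.2 and 16.7 FPKM with nanoparticles (log2 change -1.32, SE 0.102, limma adjusted p = 3.1e-04). M6pr, the small one, was at 83.5, 81.5 and 77.8 FPKM and then at 125.7, 159 and 157 FPKM (log2 change 0.85, SE 0.133, limma adjusted p = 0.00419). Cln6, a protein of the endoplasmic reticulum that helps hydrolases leave it, was lower, at a log2 change of -0.62 (limma adjusted p = 0.00681).

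Among 32 other lysosomal genes, of which 30 were tested, 10 were higher and 6 lower (33.2% of all tested genes were called), with a median of 0.09. Acp5, an acid phosphatase, had a log2 change of 1.65, from a vehicle level of 29.9 ± 2.74 FPKM to 97.7 ± 27.1 FPKM with nanoparticles (SD, n = 3). Tpcn1, a cation channel of endosomes and lysosomes, fell from 6.48 ± 0.875 to 1.42 ± 0.426 FPKM (log2 change -1.63), and Pld4, a nuclease of the compartment, from 41.7 ± 2.64 to 15.7 ± 2.82 FPKM (log2 change -1.36).

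Inhibitors of cysteine proteases, the class to which Ctsk, Ctsz, Ctsl and Ctsb belong, were listed as well. Of 9 listed symbols 8 were in the table and 7 were tested, of which 4 were higher and 0 lower, beside 17.0% and 16.2% of all tested genes. Cst7, a cystatin that acts inside the endolysosomal path, was at 3.11, 3.43 and 4.52 FPKM in vehicle and 55.4, 60.0 and 57.4 FPKM with nanoparticles (log2 change 3.66, SE 0.134, limma adjusted p = 3.2e-05). Stfa3, a stefin, had a log2 change of 1.68, but passed the filter of 1 FPKM only through the nanoparticle group, where it was high. Slpi, at 2.08, is an inhibitor of serine proteases that the list also holds. Stefin genes are near-identical copies, so their values are uncertain.

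The labelled cell type was checked against its markers. Itgax (CD11c) was at 456, 442 and 448 FPKM in vehicle, and H2-Ab1, an MHC class II chain, at 982, 1035 and 990.4 FPKM, while Flt3 was near 0 (at most 0.0793 FPKM in a library). Markers of macrophages, another cell that bone marrow cultures can hold, differed between the groups. The 13 macrophage markers summed to 882 to 1050 FPKM in vehicle and 634 to 708 FPKM with nanoparticles. Of the 11 tested, 2 were higher and 5 lower, beside 17.0% and 16.2% of all tested genes. The higher ones were Adgre1 (log2 change 1.37) and Fcgr1 (0.99). Vsig4 was near 0 in both groups, at 0.068 FPKM in vehicle library 2 and listed at 0 in all others. The 12 dendritic cell markers summed to 5410 to 5820 FPKM in vehicle and 3090 to 6880 FPKM with nanoparticles. The low end was nanoparticle library 1. Cd74, the most abundant, was at 3902 to 4264 FPKM in vehicle and at 2270, 4790 and 5273 FPKM with nanoparticles. Of 10 tested, 1 was higher and 4 lower, beside 17.0% and 16.2% of all tested genes. The higher one, Irf8, went from 8.68 ± 0.189 to 21.2 ± 2.84 FPKM (SD, n = 3, log2 change 1.19, limma adjusted p = 8.1e-04). Among the lower ones, Cd209a, listed at 0 in nanoparticle libraries 1 and 3, and Clec10a passed the filter only through the vehicle libraries. The part of cell makeup in the changes of the lysosomal genes was not tested.

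Markers of further cell types varied in level. The 12 neutrophil markers summed to 266 to 299 FPKM in vehicle and 185 to 257 FPKM with nanoparticles, most of it from Mmp8 and S100a8. Of 4 tested, Mmp8 was lower (log2 change -0.90) while S100a8 (1.16) and Csf3r (1.71) were higher, the latter having passed the filter only through the nanoparticle group. Elane and Mpo were listed at 0 in every vehicle library and at no more than 0.307 FPKM in any. Mast cell and basophil markers summed to 3.93 to 6.16 FPKM in vehicle and 10.3 to 26.1 FPKM with nanoparticles, of which Hdc made up 24.1, 6.69 and 6.76 FPKM, with Mcpt8 listed at 0 in 5 of the 6 libraries. Lymphocyte markers summed to at most 0.449 FPKM.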

How the data were processed

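RNA was sequenced from 3 vehicle and 3 nanoparticle libraries, each from 1 µg of total RNA, per the labels' protocols. Tools in the submitters' processing notes are CASAVA, STAR 2.5, HTSeq, edgeR 3.16.5 and DESeq2 2, with builds mm10 and hg19, all with no role given. The authors deposited 2 tables with identical values for 23398 genes. These were treated as FPKM, a unit inferred from the values, since no file header names it: multiplied by GENCODE M21 exon lengths and 1 scale per library, 95.7% to 96.1% of values became whole reads (within 0.01). The scales are not proportional to read totals, so the deposited FPKM carry a scaling between libraries made by the authors.

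The 10682 genes that reached 1 FPKM in 3 or more libraries were fitted as log2(FPKM + 1) with limma 3.58.1 in R 4.3.3 (lmFit, eBayes with trend, prior df 2.33), with Benjamini-Hochberg adjustment. This scale understates changes of low genes. The fit was also run on simulated data in which no library stood apart, so that run does not cover nanoparticle library 1. With 3 libraries a group, precision is limited mostly by the spread between libraries.

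The members and lists were chosen with earlier results of these data known. Values in every library are given for members past the threshold, for the most and least abundant of a class, and for those with separate groups and an absolute log2 change of at least 0.5; from each other list, up to 3 genes with the smallest adjusted p. Tried as alternatives were pseudocount 0.1, no filter and a filter of 5 FPKM, 3 scalings, no trend, the replicate number as a block, and leaving out each library. Strand and the handling of shared reads are not given in the sources used here, and exons of 15 members overlap those of another gene, so those values are uncertain. Lengths of Lipa and Npc1 were those that gave whole reads. Summaries and figures used Python 3.11.15, pandas 2.3.3, numpy 2.4.6 and matplotlib 3.10.9.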

Additional observations from a re-analysis of the deposited data

How the results depend on the processing

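With no filter on low values 10 members passed and 3 of them were lower, while 3381 of all genes passed, 1635 higher and 1746 lower. A minimum of 5 FPKM left 975 lower genes among all tested. With equal sums of FPKM, 881 genes were higher and 4307 lower, with 3 members higher and 13 lower and a member median of -0.26. With total recovered reads, 1108 genes were higher and 3613 lower, with 4 members higher and 11 lower and a median of -0.14. These scalings move all genes together by construction. Log2 changes reversed under equal sums for Idua (-0.19), Glb1 (-0.30), Hexa (-0.38), Smpd1 (-0.21), Psap (-0.41), Lamp1 (-0.071), Cd63 (-0.092), Mcoln1 (-0.10), Grn (-0.087), Ctsb (-0.075), Ctsd (-0.11), Ctsc (-0.21), Ctsa (-0.36), Ctsh (-0.37) and Galns (-0.39), and under total reads for Idua (-0.077), Glb1 (-0.18), Hexa (-0.25), Smpd1 (-0.10), Psap (-0.28), Ctsc (-0.085), Ctsa (-0.24), Ctsh (-0.24) and Galns (-0.27). Over the 6 fits that each left out 1 library, log2 changes that reversed ranged from -0.060 to 0.407 for Idua and from -0.113 to 0.208 for Galns (both below 0 without nanoparticle library 1), from -0.020 to 0.267 for Hexa (below 0 without library 3), and from -0.281 to 0.068 for Tpp1 (above 0 without library 2 or 3). In these 6 fits 2141 to 6923 genes passed, 1114 to 3660 higher and 1027 to 3263 lower, with 6 to 29 members, 4 to 18 higher and 2 to 11 lower, and 14 to 61 genes of the companion lists. With the replicate number as a block, 8 members passed, 5 higher and 3 lower, and 16 companion genes. In that fit 2785 of all tested genes passed, 1451 higher and 1334 lower. Deviations from the group means correlated at 0.07, 0.11 and -0.06 for same-numbered libraries, and at -0.13 to 0.11 for the other pairs. With 3 libraries a group, and nanoparticle library 1 apart, these values cannot decide whether the numbers pair the libraries. The pseudocount of 0.1 moved 0 members across the threshold. The lowest read counts were those of Arsb, at 78 reads in its lowest library.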
